A study of Arabidopsis thaliana with 4 samples.

Results

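Transcript signals of 49 UDP-glycosyltransferase genes were compared between flc-3 seedlings and wild-type seedlings of Arabidopsis thaliana. The genes were chosen by name: every probe set that a platform annotation assigned to 1 gene with a symbol or synonym made of UGT and a number, other than UGT78D1 and UGT78D2. The rule found 49 probe sets for 49 genes, of 22810 probe sets on the array and 13356 genes that a probe set names alone, and in 4 of them the UGT number stands only among the synonyms. They fall into 12 family numbers, from UGT71 to UGT88. The rule itself uses names and no measured value, but it was set with earlier results of these data known. A probe set that names a UGT gene together with a second gene was left out, which concerned 3 probe sets. UGT genes without a named probe set were not analysed here. Nor were those that carry no UGT number in the annotation or gene table, a glucosyltransferase of anthocyanins among them.

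Seedlings labelled flc-3 lack FLC (AT5G10140), a MADS-box repressor of flowering, through a gene knockout, and their titles write FRI in lower case, which leaves their FRI allele unsettled. Wild-type seedlings carry both FRI and FLC by their labels, and a Col-0 background is given for all. Whole seedlings grew for 6 days in constant light and 4 days in 12 h light and 12 h dark at 22 °C, and then moved to constant light at 27 °C. RNA from 24, 30, 36 and 42 h after the move was pooled in equal amounts for each array, so a value is an average over a day and carries no phase. There were 2 ATH1 arrays (a 1-colour Affymetrix expression array) for flc-3 and 2 for the wild type, and their number limits the precision of every value.

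UDP-glycosyltransferases move a sugar from a UDP-sugar onto a small acceptor molecule. Plants use them to store, transport or switch off hormones, to finish pigments and cell wall precursors, and to detoxify foreign compounds. The number after UGT gives a family by sequence likeness, and the letter a subgroup within it. Many members lie in rows of neighbouring copies.

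The array medians were 48.5 and 47.1 in flc-3 and 47.2 and 47.3 in the wild type. FLC is not among the genes the annotation names, and its own signal was not analysed here. A control for 25S ribosomal RNA read higher on replicate 1 than on replicate 2 in both genotypes. It was 1426 and 45.7 in flc-3 and 134.6 and 47.6 in the wild type, so flc-3 replicate 1 stood furthest apart. Of 7 listed leaf markers 4 have a named probe set, and these were present. Their summed signals were 6757 and 8275 in flc-3 and 8446 and 8336 in the wild type. Root markers were present as well, 3 of 4 with a named probe set. Their sums were 2841 and 3899 in flc-3 and 3867 and 3182 in the wild type. The root sums are mostly PYK10, a root beta-glucosidase, whose genotypes overlapped. The root hair expansins EXPA7 and EXPA18 were higher in flc-3 without overlap, as were 20.2% of all tested probe sets. Their log2 differences were 0.69 (limma adjusted p = 0.118) and 0.34 (adjusted p = 0.429). Of the leaf markers, LHCB4.2 and LHCB4.3 were lower in flc-3 without overlap, as were 22.8% of all tested probe sets. Their log2 differences were -0.20 (limma adjusted p = 0.686) and -0.10 (adjusted p = 0.786), and LHCB4.1 and RCA overlapped. Seed genes were known from earlier results of these data to differ between the genotypes. Of 10 listed seed markers 4 have a named probe set (PAP85, OLEO3, LEA4-1 and LEA4-5). All 4 were higher in flc-3 at a limma adjusted p under 0.05, against 1.44% of all tested probe sets. Their log2 differences were 2.17 to 3.44, with summed signals of 2176 and 1689 in flc-3 against 367 and 284 in the wild type. The part of these differences in the UGT results was not tested.

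The question put to these arrays is which transcripts depend on FLC at 27 °C. Among the 49 UGT genes chosen by the rule, 1 passed the test, UGT79B1, and it fell in flc-3. Of the 49 members, 26 had a mean signal of at least 31.2, the 40th percentile of all probe sets, and were tested. The other 23 were too dim. In limma, at a Benjamini-Hochberg adjusted p of 0.05 over 13648 probe sets, 1 of 26 was called lower, against 0.308% of all tested probe sets, and 0 of 26 were called higher, against 1.44%. At an unadjusted p under 0.05 there were 6 members, 2 higher and 4 lower with UGT79B1 among them, against 12.1% of all tested probe sets. The median log2 difference of the 26 was -0.00077, with 13 above 0 and 13 below, and that of all tested probe sets was -0.01.

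**Figure D1:**
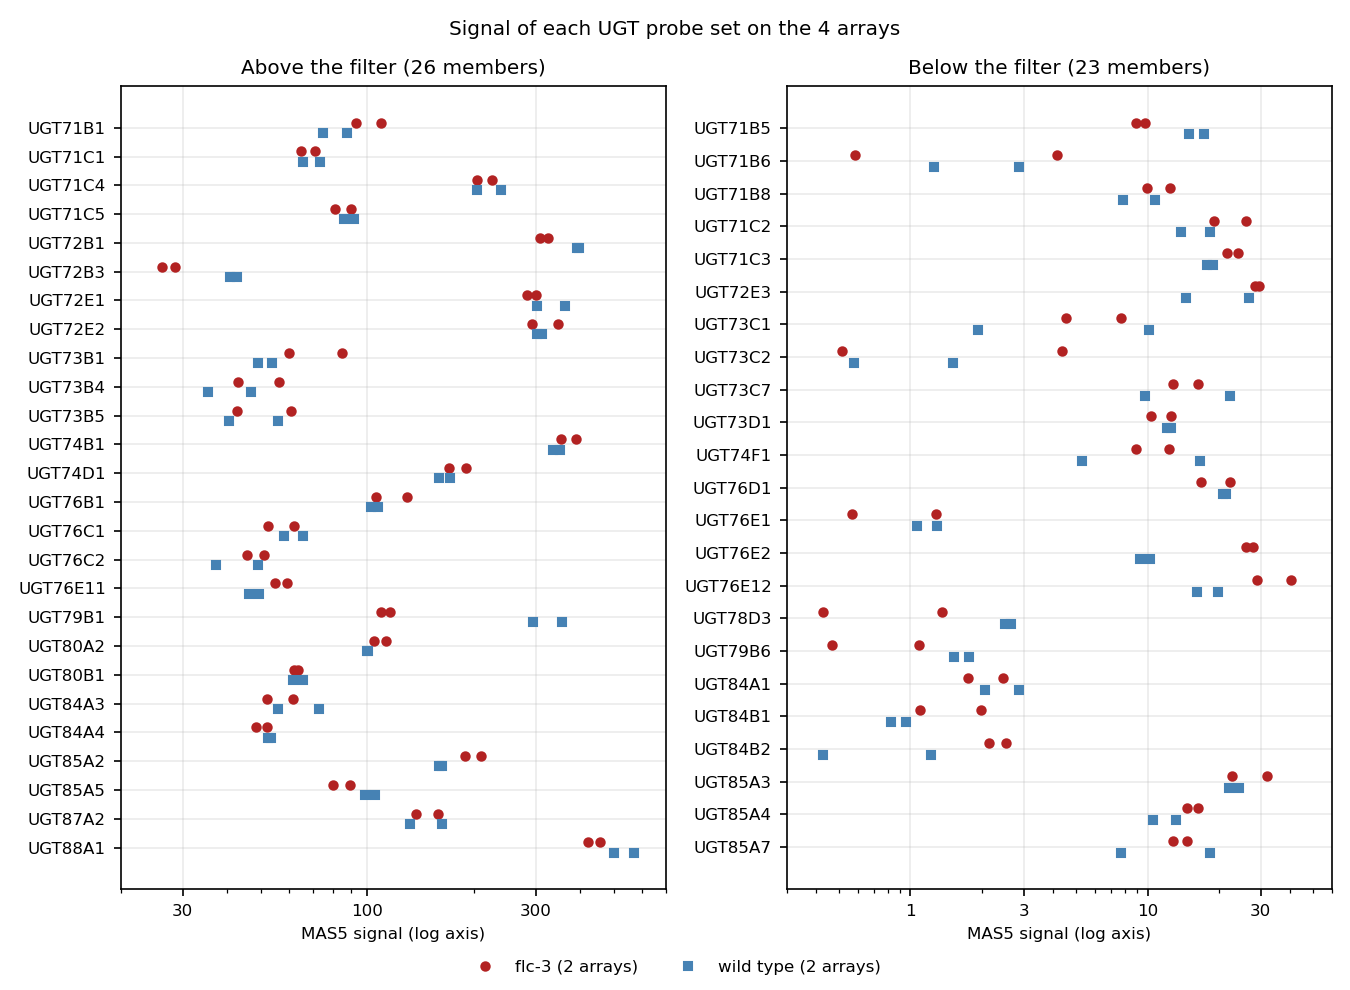
MAS5 signal of each UGT probe set on a log axis, with the 2 flc-3 arrays as red circles and the 2 wild-type arrays as blue squares, for the 26 members above the filter (left) and the 23 below it (right). For UGT79B1 on the left and UGT76E2 on the right the genotypes lie far apart and the replicates close together. Signals of different probe sets are not comparable transcript levels.

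UGT79B1 (AT5G54060, also UF3GT) encodes the enzyme that adds xylose to the glucose of anthocyanins, late in the pathway to the red and purple pigments. Its signals were 109.5 and 116 in flc-3 and 355 and 293 in the wild type. Both flc-3 arrays lay far below both wild-type arrays. The gene fell by 1.51 on the log2 scale (SE 0.12, n = 2 arrays per genotype, 95% interval -1.78 to -1.24, limma adjusted p = 0.000109), so that it was 2.85-fold lower. With 1 array left out the log2 difference lay between -1.65 and -1.37, and the other normalizations and pseudocounts stayed within that range. Without flc-3 replicate 1, the array with the highest 25S reading, it was -1.47.

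Other members of flavonoid metabolism had signals too dim for the test. UGT78D3, a flavonol arabinosyltransferase, had 0.429 and 1.36 in flc-3 and 2.51 and 2.64 in the wild type. UGT79B6, which adds glucose to flavonol glucosides in pollen, had 0.465 and 1.08 in flc-3 and 1.52 and 1.76 in the wild type. Both were lower in flc-3 without overlap, but all 8 signals lay well below the 25th percentile of their arrays (13.2 to 14.1), so no level can be read from them. The flavonoid glycosyltransferases UGT78D2 and UGT78D1, left out by the choice of members, had log2 differences of -0.53 (95% interval -0.84 to -0.22, limma adjusted p = 0.123) and -0.25 (-0.56 to 0.07, adjusted p = 0.524). Whether UGT79B1 fell more than these was not tested.

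Outside the family, a list of 16 flavonoid and anthocyanin genes, chosen with earlier results of these data known, gives the setting of UGT79B1. Of its members 6 have a named probe set, UGT78D1 and UGT78D2 among them, 5 were tested, and 3 fell, against 0.308% called lower among all tested probe sets. These were DFR (dihydroflavonol reductase) by 1.84 on the log2 scale, AT5MAT (an anthocyanin malonyltransferase) by 1.25 and CHIL (a chalcone isomerase-like protein) by 0.77. The median of the 5 was -0.77. BAN, an anthocyanidin reductase of the seed coat, was below the filter. Of 16 phenylpropanoid genes only HCT has a named probe set, with 639 and 692 in flc-3 and 746 and 675 in the wild type, overlapping ranges and a log2 difference of -0.09 (limma adjusted p = 0.806). Of 26 genes that supply UDP-sugars only USP, a UDP-sugar pyrophosphorylase, has one, with 134 and 126 in flc-3 and 137 and 138 in the wild type and a log2 difference of -0.08 (limma adjusted p = 0.838).

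**Figure D2:**
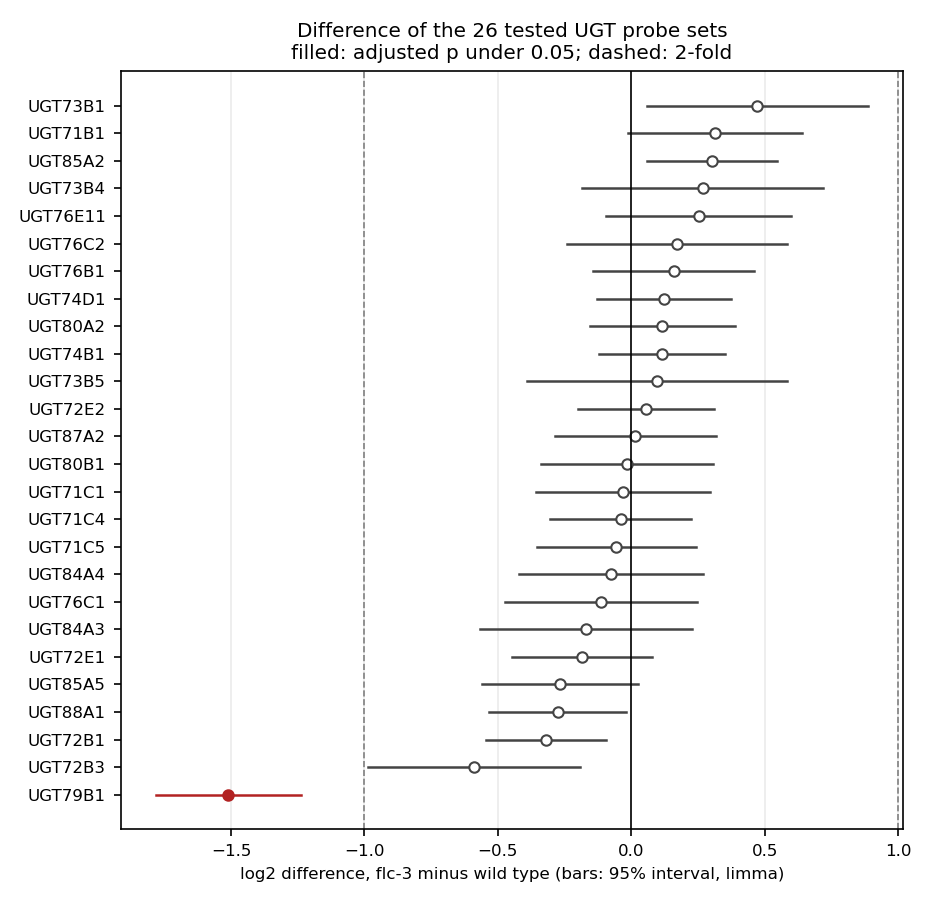
Log2 difference, flc-3 minus wild type, of the 26 tested UGT probe sets in rank order, with bars for the 95% interval from limma and dashed lines at 2-fold. The filled point, UGT79B1 at -1.51, is the called member, and the intervals of the other 25 lie inside the dashed lines.

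The other 25 tested members had log2 differences of -0.59 to 0.47. Their 95% intervals show how large a change these arrays could have missed: all 25 exclude a change of 2-fold in either direction, and 20 of them a change of 1.5-fold. UGT72B3 lies at that limit, and with no filter its interval of -1.04 to -0.14 includes a 2-fold decrease. Without flc-3 replicate 2, the intervals of 22 exclude 2-fold and those of 12 exclude 1.5-fold. The genotype difference exceeded the gap between replicates of both genotypes in 8 of 26 members, a share near the 30.1% of all tested probe sets. The genotypes did not overlap in 13 of 26 members, against 43.0% of all tested probe sets. Of the 13, 6 were higher and 7 lower, against 20.2% and 22.8%.

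Enzymes that act on monolignols, the alcohols that build lignin, and on hydroxycinnamic acids did not pass. UGT72E1, active on the aldehyde precursors, had 299.8 and 282 in flc-3 and 302 and 362 in the wild type, just without overlap, and a log2 difference of -0.19 (95% interval -0.45 to 0.08). With 1 array left out it lay between -0.32 and -0.056. UGT72E2, which glucosylates coniferyl and sinapyl alcohol, had 347 and 293 in flc-3 and 301 and 312 in the wild type. Its genotypes overlapped, with a difference of 0.05 (-0.20 to 0.31). UGT72E3, active on sinapyl alcohol, was below the filter, with 29.5 and 28.5 in flc-3 against 26.9 and 14.5 in the wild type. UGT84A3 and UGT84A4, which make glucose esters of hydroxycinnamic acids, had differences of -0.17 (-0.57 to 0.23) and -0.08 (-0.42 to 0.27), and UGT84A1 of the same kind was dim, at 1.75 to 2.86 over the 4 arrays.

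Abscisic acid is stored as a glucose ester. UGT71C5, which makes that ester in the plant, had 89.7 and 80.9 in flc-3 and 85.6 and 91.7 in the wild type, overlapping ranges and a log2 difference of -0.06 (95% interval -0.35 to 0.24). UGT73B1, which acts on abscisic acid in the test tube, had 84.7 and 60.0 in flc-3 and 53.5 and 48.9 in the wild type. It was higher in flc-3 without overlap, but its flc-3 replicates differed by 0.49 on the log2 scale, as much as the genotypes did (0.47, SE 0.18, limma adjusted p = 0.341). UGT71B6 and UGT71B8, relatives with the same substrate, lay below the filter with overlapping genotypes, at 0.586 to 4.15 and 7.9 to 12.5.

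No member that acts on other hormones passed. UGT74D1, an auxin glucosyltransferase, had 190.3 and 170.0 in flc-3 and 171 and 159.6 in the wild type, with a log2 difference of 0.12 (95% interval -0.13 to 0.37). The auxin enzyme UGT84B1 and its neighbour UGT84B2 were higher in flc-3 without overlap, at signals of 1.1 to 2.53 in flc-3 and 0.429 to 1.22 in the wild type. Their log2 differences of 0.40 and 0.90 rest on signals too dim to read. UGT76C1 and UGT76C2, which add glucose to a ring nitrogen of cytokinins, had differences of opposite sign, -0.11 (-0.47 to 0.25) and 0.17 (-0.24 to 0.58), and both had overlapping genotypes. UGT73C1, which acts on cytokinins and foreign compounds, spread from 1.94 to 10.1 within the wild type alone.

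Salicylic acid and the related defence signals isoleucic acid and N-hydroxypipecolic acid are substrates of UGT76B1. Its signals were 106 and 129 in flc-3 and 107 and 102 in the wild type, with a log2 difference of 0.16 (95% interval -0.14 to 0.46) that is smaller than the gap of 0.29 between the flc-3 arrays. UGT74F1, a salicylic acid glucosyltransferase, and UGT73D1 lay below the filter with overlapping genotypes.

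UGT87A2 has been linked to flowering time through FLC itself. Such a link need not mean that its own transcript responds to the loss of FLC. Its signals were 158 and 138 in flc-3 and 162 and 132 in the wild type. The replicates of each genotype lay further apart than the genotypes, and the log2 difference was 0.02 (SE 0.14, 95% interval -0.29 to 0.32, limma adjusted p = 0.977).

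UGT74B1, which adds the sulphur-linked glucose of glucosinolates, had 390.2 and 353 in flc-3 and 349.9 and 336 in the wild type. The genotypes just missed overlap, and the log2 difference of 0.11 (95% interval -0.12 to 0.35) did not pass. The sterol glucosyltransferases UGT80A2 and UGT80B1 (also TRANSPARENT TESTA 15, for its pale seed coat mutant) had differences of 0.12 (-0.16 to 0.39) and -0.02 (-0.34 to 0.30).

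UGT72B1, which conjugates chlorinated foreign compounds and monolignols, had 324 and 308 in flc-3 and 397 and 392 in the wild type. Its replicates lay close together (gaps of 0.08 and 0.02 on the log2 scale) and its genotypes did not overlap, but the difference of -0.32 did not pass (SE 0.10, 95% interval -0.55 to -0.09, limma adjusted p = 0.217). The other member of its subgroup, UGT72B3, had 26.3 and 28.6 in flc-3 and 40.8 and 42.8 in the wild type, and at -0.59 it was the lowest of the uncalled tested members (SE 0.18, -0.99 to -0.19, adjusted p = 0.192). Its mean signal lay near the filter. UGT73B4 and UGT73B5, stress-induced relatives, had overlapping genotypes, with differences of 0.27 (-0.19 to 0.72) and 0.10 (-0.39 to 0.58), and UGT71C1, active on several phenolic compounds, had -0.03.

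Of the members without a listed role, UGT88A1 had 421 and 457 in flc-3 and 498 and 567 in the wild type, a difference of -0.28 (95% interval -0.53 to -0.02, limma adjusted p = 0.37). UGT85A2 was higher in flc-3 without overlap, with 188 and 209.6 against 159 and 163 in the wild type, and a difference of 0.30 (0.06 to 0.55, adjusted p = 0.291). Its neighbour UGT85A5 had 89.2 and 79.6 in flc-3 and 105 and 98.5 in the wild type, a difference of -0.27 (-0.56 to 0.02). UGT71B1 had a difference of 0.31 (-0.01 to 0.64), UGT76E11 one of 0.25 (-0.10 to 0.60) and UGT71C4 one of -0.04 (-0.30 to 0.22). None of them passed the adjusted threshold.

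By family number, the 1 called member lies in UGT79. The medians and signs below describe few uncalled members each and were not tested. The 5 members of UGT72 had 4 tested, 3 of them below 0, with a median log2 difference of -0.25. The 3 tested of 7 UGT73 members were all above 0, with a median of 0.27. The 4 tested of 9 UGT71 members had a median of -0.04, the 4 tested of 8 UGT76 members one of 0.17, and the 2 tested members of UGT85 one of 0.02. The tested members of UGT74, 2 of 3, and of UGT80, 2 of 2, had medians of 0.12 and 0.05, and the 2 tested of 5 UGT84 members one of -0.12.

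**Figure D3:**
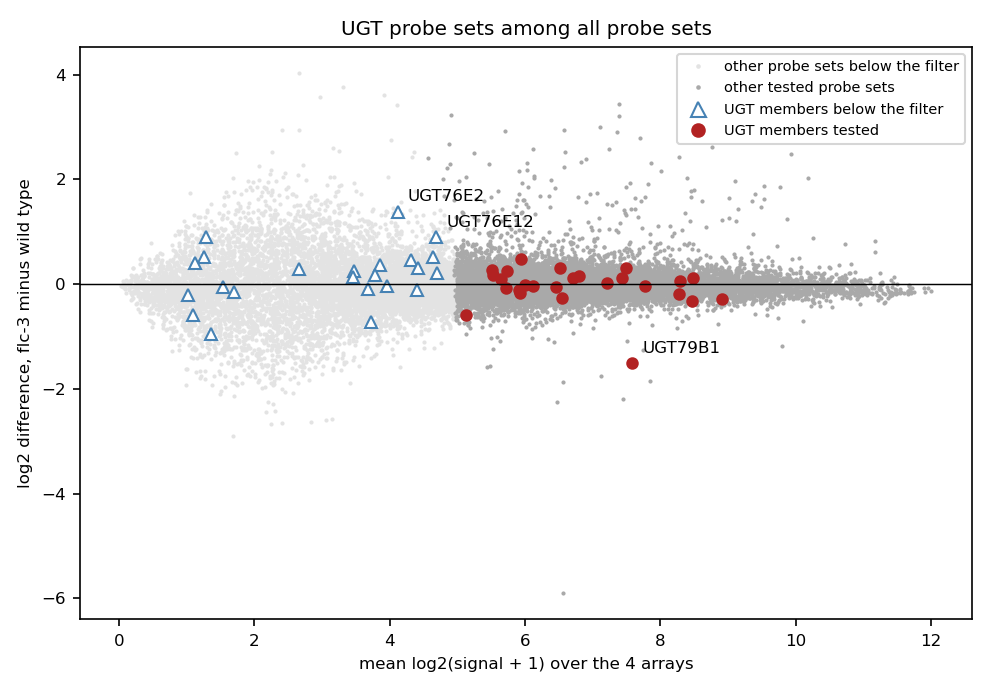
Log2 difference, flc-3 minus wild type, against the mean log2(signal + 1) over the 4 arrays for all probe sets (grey), the 26 tested UGT members (red circles) and the 23 below the filter (open triangles). Tested members lie within the grey band except for UGT79B1 at -1.51, and the spread of all probe sets widens towards dim signals, where UGT76E2 at 1.38 lies.

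The 23 members below the filter had mean signals of 1.05 to 26.4. In 8 of them the flc-3 arrays lay above both wild-type arrays and in 3 below, against 15.5% and 22.2% of all 9098 probe sets below the filter. The widest difference was that of UGT76E2, with 28.0 and 26.1 in flc-3 and 10.3 and 9.28 in the wild type. Its replicates lay close together, and the log2 difference of 1.38 was larger than the gaps of 0.10 and 0.13 between them. It was the 1 dim member with a difference of at least 1 and no overlap in the higher direction, as in 3.85% of probe sets below the filter. In a fit with no filter its limma adjusted p was 0.149, and with 16 added to each signal before log2 its difference was 0.74. UGT76E12, of the same subgroup, had 40.3 and 29.1 in flc-3 and 19.9 and 16.1 in the wild type, a difference of 0.90 (limma adjusted p = 0.347 with no filter). Both UGT76E12 and UGT76E2 were singled out among the dim members by their differences, UGT76E12 after its values were seen. UGT71B5 was lower in flc-3, with 9.75 and 8.96 against 17.3 and 14.9 in the wild type, and was also named after its values were seen (adjusted p = 0.516 with no filter).

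Of the 49 genes, 29 lie in 12 clusters of neighbours, counted where no more than 3 steps in the order of protein-coding genes separate adjacent members. UGT79B1 belongs to none of them. No member of a cluster was called. The estimates of neighbours differed in sign as well as in size in some clusters, but whether neighbours differ from each other was not tested. In the cluster of UGT85A2, UGT85A3, UGT85A5 and UGT85A7 the log2 differences ran from -0.27 for UGT85A5 to 0.30 for UGT85A2. UGT76E1, next to UGT76E2, had signals of 0.566 to 1.3 over the 4 arrays and a difference of -0.20. The 3 neighbours UGT84A1, UGT84A3 and UGT84A4 lay between -0.17 and -0.08. Neighbouring copies resemble each other in sequence, and whether a probe set also detects its neighbour was not tested.

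**Figure D4:**
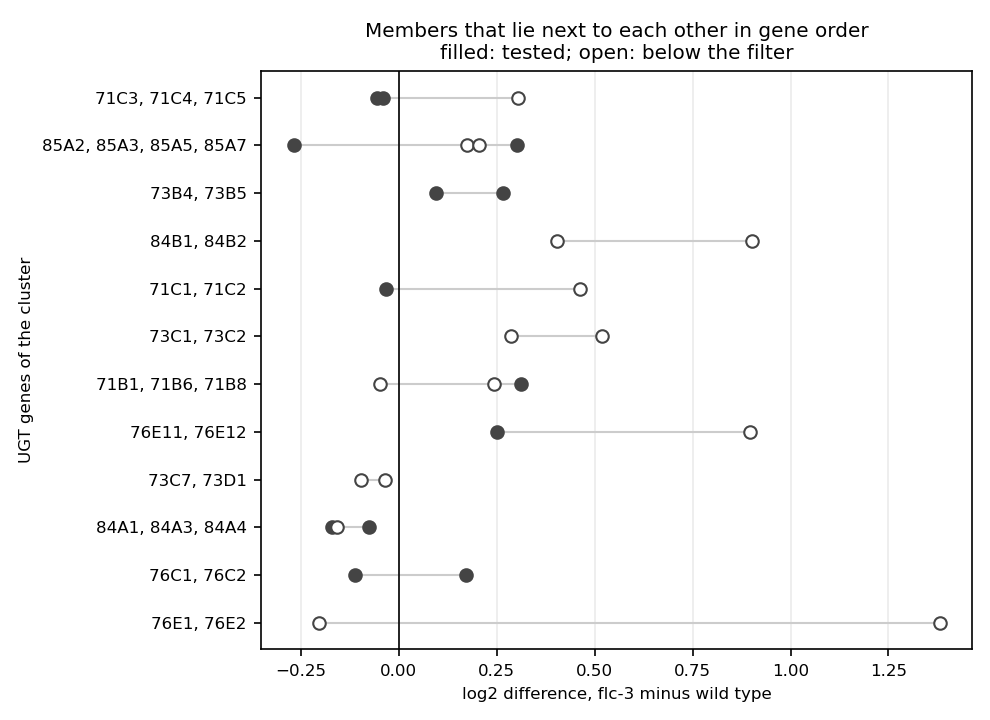
Log2 difference, flc-3 minus wild type, of the 29 members that lie in 12 clusters of neighbouring genes, 1 row per cluster, with filled points for tested members and open points for members below the filter. No member shown was called. Members of a cluster spread to both sides of 0 in several rows, and the widest row is that of UGT76E1 at -0.20 and UGT76E2 at 1.38.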

How the data were processed

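Total RNA of whole seedlings was measured on 4 arrays, 2 per genotype. The deposited values are linear signal intensities. Per the submitters' processing notes the authors used MAS5, of unstated version, which combines the probe pairs of a probe set and scales each array. The 2% trimmed mean was 100.01 on every array, and that scaling was kept. Detection calls were not used here.

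Of 22810 probe sets, 64 controls were left out. The annotation gave 1 gene symbol to 13513 probe sets, several to 503 and none to 8730, and symbols and synonyms came from a TAIR10.1 gene table. No coordinates are printed because the values name no build. Fold changes are on the log2(signal + 1) scale, which understates those of dim probe sets. A filter at the 40th percentile of the mean signal left 13648 probe sets. The test was 2-sided, in limma 3.58.1 under R 4.3.3 (lmFit, eBayes with an intensity trend), genotype the only term, and Benjamini-Hochberg adjustment over all 13648. The intervals are limma's 95% intervals. In 5 simulated runs over 13648 probe sets, 200 of them changed, this step recovered 93.4% of 2-fold changes, and 6.08% of its calls were false. Whether replicates are separate cultures is not in the labels, and the spread behind each p-value may be technical.

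The members, the lists and the rule for named genes were chosen with earlier results of these data known. Named are called members, the 6 smallest p in each direction among the others, the member with the highest mean signal in each family of 3 or more, members with a listed role, and dim members that differ by at least 1 (log2) without overlap. From the flavonoid, phenylpropanoid and UDP-sugar lists, called genes and the 3 smallest p are named. Alternatives were 3 other normalizations, pseudocounts of 16 and 0.1, other filters, robust eBayes and eBayes with no trend, a replicate block, a threshold of 0.1, and each array left out.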

Additional observations from a re-analysis of the deposited data

Results flagged for a closer look

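The 3 probe sets that name a UGT gene together with another gene entered no count of members, and in each both flc-3 arrays read higher than both wild-type arrays, as in 20.2% of all tested probe sets. The probe set for UGT73B2 and UGT73B3 read 224 and 218 in flc-3 and 197 and 198 in the wild type, a ratio of mean signals of 1.12 (limma adjusted p = 0.577). The probe set for UGT89B1 and AT1G73885 read 143 and 129 in flc-3 and 109.8 and 97 in the wild type, a ratio of 1.31 (limma adjusted p = 0.227). The probe set for UGT71D1 and AT2G29710 read 48.4 and 44.6 in flc-3 and 33.8 and 39.2 in the wild type, a ratio of 1.27 (limma adjusted p = 0.467). None passed the threshold, and which of the genes each signal comes from was not tested. Groups of 2 arrays are too small to look for outlying arrays.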

How the results depend on the processing

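UGT79B1 was called lower, with no other member called in either direction, under all 15 alternative fits and at a threshold of 0.1. Its limma adjusted p was 0.000109 in the main fit and 0.00376 with no filter. The fits with 1 array left out and the fit with the replicate number as a block leave 1 residual degree of freedom. Their p is not quoted. None of the other 25 tested members passed in any alternative. The filter at the 60th percentile tested only 14 of these 25, and the threshold of 0.1 was applied to the main fit alone. The count of called probe sets over the whole array, 239, was 121 with no filter, where 22746 probe sets were tested, and 780 with the replicate block. It ranged from 146 without flc-3 replicate 1 to 374 without wild type replicate 1. The cause of these shifts was not tested. A filter on the mean log2 value, added after seeing the data, gave 230. Replicate numbers may not pair the arrays. Across tested probe sets the gaps between replicates 1 and 2 correlated at 0.09 between genotypes, and at 0.25 over the 26 tested members. In this balanced design the block cannot change a log2 difference.

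When 1 array was left out, 10 of the 26 tested members changed sign, with log2 ranges of -0.11 to 0.046 for UGT71C1, -0.15 to 0.070 for UGT71C4, -0.13 to 0.018 for UGT71C5, -0.068 to 0.18 for UGT72E2, -0.15 to 0.34 for UGT73B5, -0.23 to 0.0064 for UGT76C1, -0.020 to 0.36 for UGT76C2, -0.061 to 0.027 for UGT80B1, -0.36 to 0.019 for UGT84A3 and -0.13 to 0.16 for UGT87A2. In 10 others the sign was kept and the value moved by over 1.5 times. Of the named dim members 5 changed sign, with ranges of -0.90 to 0.80 for UGT71B6, -0.68 to 1.25 for UGT73C1, -0.62 to 0.88 for UGT74F1, -0.22 to 0.032 for UGT73D1 and -0.33 to 0.011 for UGT84A1. The interval of UGT72B3 reached 2-fold with no filter, median centring, a pseudocount of 0.1 and any array left out. Those of UGT73B1 (without flc-3 replicate 2 or wild type replicate 1) and UGT73B4 (without flc-3 replicate 2) did too. With 2 arrays per genotype and no detection calls, the 23 dim members are the least certain.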

Other observations

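The stress-related neighbours UGT73B4 and UGT73B5 differed more between arrays of 1 genotype than between genotypes. UGT73B5 read higher in replicate 1 than in replicate 2 by 0.49 on the log2 scale in flc-3 and by 0.46 in the wild type, against a genotype difference of 0.10. For UGT73B4 the gaps were 0.37 in flc-3 and 0.39 in the wild type, against 0.27 between genotypes. Over all tested probe sets the median size of that gap was 0.12 in flc-3 and 0.16 in the wild type. The pair was chosen after its values were seen.

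Within subgroup UGT76E, 3 of 4 members read higher in flc-3 without overlap, UGT76E2 (1.38), UGT76E12 (0.90) and UGT76E11 (0.25), and UGT76E1, which glucosylates a hydroxylated jasmonate, was near the bottom of the signal range on all 4 arrays. Both flc-3 arrays lay above both wild-type arrays in 20.2% of tested and 15.5% of dim probe sets. The subgroup was singled out after its values were seen, and none of the 4 passed in limma with no filter.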
